A study of Mus musculus with 8 samples.

Results

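Treg cells that had lost *Brg1* (*Smarca4*) were compared between a severely inflamed host and a healthy one. The inflamed host was the rKO1 mouse, in which Cre acted in all Treg cells, and the healthy host was the mosaic female, in which *Brg1*-sufficient Treg cells developed beside the deleted ones. A gene was called higher or lower when log2(FPKM + 1) differed from the mosaic *Brg1*-deleted library by at least 1, that is 2-fold, in the same direction in both rKO1 libraries. FPKM is the number of fragments divided by exon length and library size, and adding 1 FPKM understates the fold change of weakly expressed genes. Of the 12975 genes with 1 FPKM or more in any of the 3 libraries, 845 passed this rule, of which 515 were higher and 330 lower in rKO1 Treg cells.

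RNA was sequenced from 8 libraries of sorted mouse Treg cells, 6 of them of total Treg cells, and the 3 compared here were the *Brg1*-deleted ones. The mosaic library came from mice labelled R26CAG-FlpoER BrgF/ΔR Foxp3YFP-Cre. The untreated rKO1 library and the library of GFP+ *Brg1*-deleted cells, taken from rKO1 mice on Day 7 after tamoxifen (TAM), were both labelled R26CAG-FlpoER BrgF/deltaR Foxp3YFP-Cre/YFP-Cre. All mice were labelled C57BL/6, although the gene-trapped allele came from a mixed background with 129Sv and had 3 generations of backcrossing. They were aged 3 to 4 weeks, and cells were taken from spleen and lymph nodes. All 3 groups thus carried a floxed and a gene-trapped *Brg1* allele and an inducible Flpo recombinase under the CAG promoter at R26, with Cre driven by the X-linked *Foxp3* locus, so that deletion followed *Foxp3* expression. After TAM, rKO1 mice also held *Brg1*-reexpressed Treg cells. Beside them, the 3 remaining total Treg libraries served as a reference. They were *Brg1*-sufficient Treg cells of mosaic females (BrgF/ΔR Foxp3+/+), WT Treg cells (BrgF/+ Foxp3YFP-Cre/+) and the GFP− *Brg1*-reexpressed Treg cells of TAM-treated rKO1 mice.

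BRG1 is the ATPase of the BAF chromatin remodelling complex, which opens nucleosomal DNA at enhancers and promoters. Naive Treg cells recirculate through lymphoid organs by means of homing receptors such as CCR7 and S1PR1. On activation through the T cell receptor (TCR) and by cytokines they lower these molecules and gain effector molecules such as KLRG1, ICOS, TIGIT, IL-10 and granzymes. Type I interferons act on genes through the interferon-stimulated response element (ISRE), whereas interferon-γ (IFNγ) acts through the gamma-activated site (GAS).

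Each condition had 1 library, so no spread between mice could be estimated and no test was made. The rKO1 libraries differed in TAM and were not replicates, and both were set against the same mosaic library. Intervals given below are exact 95% binomial intervals from fragments (reads) recovered from the FPKM values and cover counting error only. The 3 libraries held between 16295915 and 24053575 reads on genes. Host inflammation, the presence of *Brg1*-sufficient Treg cells and other differences between the hosts cannot be told apart, and in bulk RNA a larger share of activated cells cannot be told apart from more RNA per cell. *Smarca4* (ENSMUSG00000032187, chr9:21616169-21704230, GRCm38) stood at 7.44 FPKM in the mosaic, 7.34 in the untreated rKO1 and 6.13 in the TAM-treated rKO1 library, against 14.8 in WT and 12.1 in mosaic *Brg1*-sufficient cells. All 3 *Brg1*-deleted libraries lay below both references, and these gene-level values do not show which exons the reads came from. The sex of the hosts also differed by their RNA. The Y-linked genes *Ddx3y*, *Eif2s3y*, *Kdm5d* and *Uty* had 0 reads in the mosaic library, 4155 in the untreated and 2083 in the TAM-treated rKO1 library, although the rKO1 labels give a female genotype, and *Xist* had 3990, 10 and 934 reads. The 402 genes of the X and Y chromosomes were therefore left out of the counts in this section, and the part of sex in the autosomal differences was not tested.

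More genes were higher than lower in rKO1 Treg cells. The median level of the 515 higher genes was 1.16 FPKM in the mosaic *Brg1*-deleted library and 7.78 and 7.29 FPKM in the untreated and TAM-treated rKO1 libraries. They made up 3.97% of all genes measured, and the 330 lower genes, with a median of 5.81 FPKM in the mosaic library and 1.21 and 1.36 FPKM in the rKO1 libraries, made up 2.54%. Over all genes the median difference was 0.04 for the untreated and 0.05 for the TAM-treated library on the log2 scale. Taken singly, the untreated rKO1 library differed at least 2-fold from the mosaic one in 12.7% of genes, 7.57% higher and 5.09% lower. The TAM-treated library did so in 11.1%, 6.99% higher and 4.14% lower. As a yardstick, 7.11% of genes differed that much between WT and mosaic *Brg1*-sufficient cells, and 5.29% between the rKO1 libraries themselves. A change of at least 4-fold in both libraries was seen in 100 higher and 32 lower genes.

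The reference libraries were read for the same genes, as a description, since the rule already fixed their order against the mosaic *Brg1*-deleted library. Of the 515 higher genes, 345 (67.0%) lay above WT, mosaic *Brg1*-sufficient and mosaic *Brg1*-deleted cells alike in both rKO1 libraries. Over all genes, with no selection, this share was 18.2%, and nothing is read from the difference. For the other 170, at least 1 rKO1 library was at or below WT or mosaic *Brg1*-sufficient cells. The median of the higher genes was 4.28 FPKM in WT and 2.61 FPKM in mosaic *Brg1*-sufficient cells, both above the 1.16 FPKM of the mosaic *Brg1*-deleted library. Of the 330 lower genes, 195 (59.1%) lay below all 3 healthy libraries, a share that is 15.4% over all genes and was likewise set in part by the rule. In *Brg1*-reexpressed cells of TAM-treated rKO1 mice the medians were 8.80 FPKM for the higher and 1.40 FPKM for the lower genes. Both were near those of the rKO1 *Brg1*-deleted libraries.

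The activation/effector genes named in the study were mostly higher in rKO1 Treg cells. Of 14 such genes, *Cxcr3* is X-linked and *Ccr3* was below 1 FPKM in the 3 libraries. Of the 12 measured, 8 (66.7%) were higher and 0 lower in both, against 3.97% and 2.54% over all genes. The median log2 differences were 1.41 in untreated and 1.99 in TAM-treated cells. The study chose these genes on libraries that include the present ones, so their direction is not independent evidence. *Gzma* (ENSMUSG00000023132, chr13:113093825-113100981), which encodes the cytotoxic protease granzyme A, had 0 reads in mosaic *Brg1*-deleted cells and 566 and 638 reads in untreated and TAM-treated rKO1 cells. Its level was at least 253-fold and at least 304-fold higher, taking 3 reads as the floor, and it reached 31.8 and 38.1 FPKM. WT cells had 3.08 and mosaic *Brg1*-sufficient cells 8.21 FPKM, so rKO1 cells stood above all 3 healthy libraries.

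*Klrg1*, an inhibitory receptor of terminally differentiated effector Treg cells, rose from 1.72 FPKM in the mosaic library to 40.4 FPKM in the untreated and 30.5 FPKM in the TAM-treated rKO1 library, 23.4-fold (95% interval 18.0 to 31.1) and 17.7-fold (13.5 to 23.5). *Tigit*, a coinhibitory receptor for CD155, went from 6.20 to 97.9 and 61.3 FPKM, and *Icos*, a costimulatory receptor, from 7.32 to 73.6 and 35.4 FPKM. For both receptors the mosaic *Brg1*-deleted library was the lowest of all, since mosaic *Brg1*-sufficient cells had 101 FPKM of *Tigit* and 40.1 FPKM of *Icos*. *Klrg1* at 35.6 FPKM in mosaic *Brg1*-sufficient cells lay between the rKO1 libraries. *Gzmb*, granzyme B, rose from 73.3 FPKM to 730.5 FPKM in untreated cells, 9.96-fold (9.56 to 10.4), and to 265 FPKM in TAM-treated cells, 3.62-fold (3.45 to 3.79), and both exceeded the 33.8 FPKM of WT and the 148 FPKM of mosaic *Brg1*-sufficient cells. *Prdm1*, the gene of the effector transcription factor BLIMP-1, rose from 0.723 to 4.59 and 3.65 FPKM.

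The chemokine receptor *Ccr10* rose from 0.244 to 1.60 and 5.01 FPKM, below the 10.1 FPKM of mosaic *Brg1*-sufficient cells, and the granzyme gene *Gzmf*, of which 16.4% of the exon length overlaps another gene, rose from 1.14 to 3.69 and 3.40 FPKM on 25, 60 and 52 reads. Chemokine receptors *Ccr1*, *Ccr2* and *Ccr8* missed the threshold in 1 or both libraries. *Ccr2* differed by 0.94 and 2.19 on the log2 scale, *Ccr8* by 0.88 and 0.62, and *Ccr1* by 0.34 and 1.24. The X-linked *Cxcr3*, receptor for the interferon-induced chemokines CXCL9 and CXCL10, stood at 2.40 FPKM in the mosaic library and 95.5 and 63.5 FPKM in the rKO1 libraries, with 44.7 FPKM in mosaic *Brg1*-sufficient cells.

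**Figure D1:**
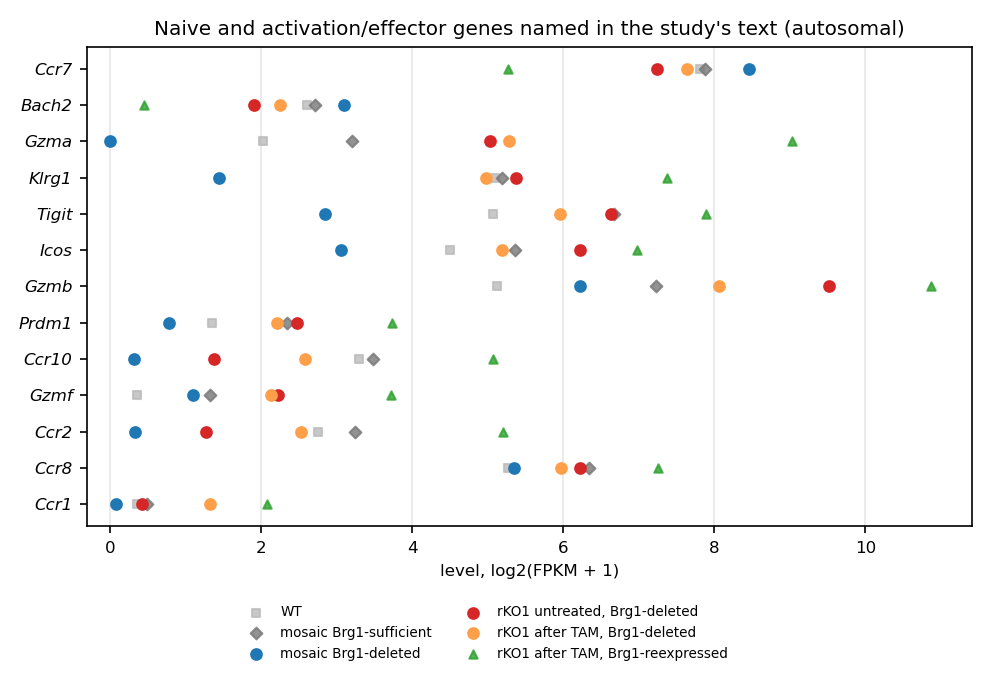
Level of autosomal naive and activation/effector genes named in the study (rows) as log2(FPKM + 1), with 1 symbol per library; large circles mark the 3 *Brg1*-deleted libraries. For *Klrg1*, *Tigit* and *Icos* the mosaic *Brg1*-deleted library, at 1.72, 6.20 and 7.32 FPKM, lies to the left of every other library, and for *Gzma* it lies at 0.

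Of a wider list of 42 genes typical of activated Treg cells, 23 (54.8%) were higher and 0 lower in both rKO1 libraries. The shares over all genes were 3.97% and 2.54%. Median log2 differences of the list were 1.302 and 1.34. It shares several members with the study's genes. The list was also chosen with earlier results of these data known, so its direction is not independent evidence. *Il10*, the suppressive cytokine, had 1.41 FPKM in the mosaic library and 34.4 and 40.1 FPKM in the rKO1 libraries, 24.4-fold (18.0 to 33.8) and 28.4-fold (20.99 to 39.4) more. Its levels in WT and mosaic *Brg1*-sufficient cells were 17.3 and 9.79 FPKM, below both rKO1 libraries. *Ebi3*, a subunit of IL-35 and IL-27, rose from 1.19 to 43.6 and 31.0 FPKM, with 23.4% of its exon length overlapping another gene. *Il1r2*, the decoy receptor for IL-1, rose from 0.573 FPKM to 23.5 and 31.6 FPKM, whereas WT cells had 35.1 FPKM. *Cst7* and *Nkg7*, which encode proteins of cytotoxic granules, rose from 43.6 to 356 and 236 FPKM and from 187 to 1249 and 619 FPKM. Of the 42 genes, 18 lay above all 3 healthy libraries in both rKO1 libraries. Over all genes measured the share was smaller, 2356 of 12975 (18.2%).

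Small calcium-binding proteins and galectins, which many effector T cells carry at high level, had 10 of 27 measured genes (37.0%) higher and 1 (3.70%) lower. The shares over all genes were 3.97% and 2.54%. *S100a6* rose from 58.0 FPKM to 1362 and 893 FPKM, 23.5-fold (22.4 to 24.6) and 15.4-fold (14.7 to 16.2). *S100a11* rose from 71.7 to 834 and 840 FPKM, close to the 726 FPKM of WT and 854 FPKM of mosaic *Brg1*-sufficient cells. *Lgals3*, galectin-3, rose from 4.89 to 69.3 and 116 FPKM. *Lgals9*, the gene of galectin-9 and itself responsive to interferon, fell from 180 FPKM to 46.0 and 68.1 FPKM, below the 249 FPKM of WT and 190 FPKM of mosaic *Brg1*-sufficient cells.

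Of 29 measured transcription factors of T helper and effector lineages, 13 (44.8%) rose and 0 fell, against 3.97% and 2.54% over all genes. Their median log2 differences were 0.99 and 1.09. *Tbx21*, which encodes T-bet, the factor of type 1 responses, rose from 0.744 to 8.22 and 6.01 FPKM, 11.1-fold (8.07 to 15.5) and 8.08-fold (5.84 to 11.4), above the 2.22 FPKM of WT and 3.50 FPKM of mosaic *Brg1*-sufficient cells. *Id2*, an inhibitor of E proteins, rose from 21.4 to 151 and 247 FPKM. *Batf*, an AP-1 factor needed for tissue Treg cells, rose from 83.8 to 251 and 227 FPKM, and *Batf3* rose from 0.605 to 6.72 and 10.2 FPKM. *Maf*, a factor that drives *Il10*, rose from 2.60 to 16.3 and 12.2 FPKM, near the 15.4 FPKM of mosaic *Brg1*-sufficient cells. *Zbtb32*, *Hif1a*, *Nfil3*, *Rora*, *Runx3*, *Tox2*, *Bhlhe40* and *Prdm1* were the remaining ones. *Irf4*, a factor of TCR signalling and effector Treg cells, differed by 0.56 and 0.12 and *Gata3*, the factor of type 2 responses, by 0.13 and 0.57 on the log2 scale, both short of the threshold.

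Among 29 measured chemokines and cytokines, 12 (41.4%) were higher and 1 (3.45%) lower, against 3.97% and 2.54% over all genes. *Ifng* rose from 0.455 FPKM to 6.89 and 15.3 FPKM on 14, 158 and 330 reads, with 25.9% of its exon length overlapping another gene, and *Il4*, a type 2 cytokine, from 0.377 FPKM to 10.1 and 40.7 FPKM on 11, 219 and 832 reads. Both were higher in TAM-treated than in untreated rKO1 cells and above all 3 healthy libraries. *Penk*, the enkephalin precursor found in tissue Treg cells, rose from 12.2 FPKM to 251 and 194 FPKM, 20.6-fold (18.8 to 22.6) and 15.9-fold (14.5 to 17.6). *Ccl3* and *Ccl4*, chemokines that T cells and macrophages both make, stood at 0 and 1.27 FPKM in the mosaic library. *Ccl3* reached 13.3 and 14.6 FPKM, at least 80.6-fold and at least 88.5-fold higher on 180 and 186 reads, and *Ccl4* reached 70.3 and 36.6 FPKM. *Tgfb1*, which encodes the suppressive cytokine TGF-β1, was the member that fell, from 9.28 FPKM to 4.08 and 3.76 FPKM, and it no longer passed when libraries were scaled to equal FPKM totals or by total reads.

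Genes of naive and resting T cells moved the other way. Of 29 measured, 7 (24.1%) were lower and 1 (3.45%) higher in both rKO1 libraries, against 2.54% and 3.97% over all genes. In 26 the difference was negative in both, and the medians were -1.11 and -0.65. *S1pr1*, the receptor for egress from lymph nodes, fell from 155 FPKM to 31.6 and 56.4 FPKM, 4.89-fold (4.65 to 5.15) and 2.74-fold (2.63 to 2.86). *Lef1*, a factor of naive T cells, fell from 32.3 to 10.96 and 15.1 FPKM. In both genes the rKO1 libraries lay below all 3 healthy ones. *Igfbp4*, a marker of resting Treg cells, fell from 231 to 82.0 and 100 FPKM, but WT and mosaic *Brg1*-sufficient cells had 70.7 and 71.8 FPKM, so the mosaic *Brg1*-deleted library was the high one. *Nsg2*, *Cd55* and *Actn1* fell as well.

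Other naive genes came close to the threshold without passing it in both. The study's naive genes were *Ccr7*, the homing receptor for lymph nodes, with log2 differences of -1.22 and -0.82, and *Bach2*, a repressor of effector differentiation, with -1.19 and -0.85. *Ccr7* had 350 FPKM in the mosaic, 150 in the untreated and 198 FPKM in the TAM-treated rKO1 library, and both rKO1 libraries lay below the 223 FPKM of WT. *Tcf7* differed by -1.14 and -0.67, *Klf2* by -1.04 and -0.51 and *Foxp1* by -1.23 and -0.99. In all 4 of *Ccr7*, *Bach2*, *Tcf7* and *Klf2* the TAM-treated library was the nearer to the mosaic one. *Il7r*, the receptor of the survival cytokine IL-7, is usually high in naive and memory T cells and low in Treg cells, and it was the member that rose, from 4.90 FPKM to 48.5 and 41.5 FPKM, above the 11.6 and 24.8 FPKM of WT and mosaic *Brg1*-sufficient cells.

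Type I interferon-response genes held more lower genes than any other list. Of 52 measured, 25 (48.1%) were lower and 2 (3.85%) higher in both rKO1 libraries, against 2.54% and 3.97% over all genes. In 48 the difference was negative in both, and the medians were -1.01 and -1.02. In 39 of the 52, both rKO1 libraries lay below all 3 healthy libraries. Over all genes measured the share was smaller, 2001 of 12975 (15.4%). Because so many members moved together, promoters of 4 that fell (*Ifit1*, *Ifit3*, *Rsad2*, *Isg15*) and of 2 interferon-responsive genes that rose (*Cxcl10*, *Serpina3g*) are shown, each from 250 bases before to 50 bases after the RefSeq start site (GRCm38.p6). Capitals mark matches on either strand to the ISRE core, GAAA and GAAA with any 2 bases between them, or, in *Serpina3g*, to the GAS letters TTCNNNGAA. The windows are chr19:34640639-34640938, plus strand for *Ifit1*, chr19:34583279-34583578, plus strand for *Ifit3*, chr12:26456403-26456702, minus strand for *Rsad2*, chr4:156200769-156201068, minus strand for *Isg15*, chr5:92348840-92349139, minus strand for *Cxcl10* and chr12:104235897-104236196, plus strand for *Serpina3g*.
Ifit1: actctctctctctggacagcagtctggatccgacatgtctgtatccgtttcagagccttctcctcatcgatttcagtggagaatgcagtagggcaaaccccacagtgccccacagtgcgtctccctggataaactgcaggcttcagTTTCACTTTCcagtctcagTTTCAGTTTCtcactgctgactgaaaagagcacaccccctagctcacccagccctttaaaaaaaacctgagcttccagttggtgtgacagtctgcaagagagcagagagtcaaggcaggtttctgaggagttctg
Ifit3: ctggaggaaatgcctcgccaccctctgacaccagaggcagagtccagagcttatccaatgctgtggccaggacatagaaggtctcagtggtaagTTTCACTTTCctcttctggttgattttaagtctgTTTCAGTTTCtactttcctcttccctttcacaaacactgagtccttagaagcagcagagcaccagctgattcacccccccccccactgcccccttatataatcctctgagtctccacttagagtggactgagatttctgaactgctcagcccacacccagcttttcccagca
Rsad2: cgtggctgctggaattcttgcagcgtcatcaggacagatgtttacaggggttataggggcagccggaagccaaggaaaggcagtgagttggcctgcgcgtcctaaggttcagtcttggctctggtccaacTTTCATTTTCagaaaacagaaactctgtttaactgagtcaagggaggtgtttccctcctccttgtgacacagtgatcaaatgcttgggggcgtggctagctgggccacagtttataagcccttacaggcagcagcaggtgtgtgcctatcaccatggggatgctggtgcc
Isg15: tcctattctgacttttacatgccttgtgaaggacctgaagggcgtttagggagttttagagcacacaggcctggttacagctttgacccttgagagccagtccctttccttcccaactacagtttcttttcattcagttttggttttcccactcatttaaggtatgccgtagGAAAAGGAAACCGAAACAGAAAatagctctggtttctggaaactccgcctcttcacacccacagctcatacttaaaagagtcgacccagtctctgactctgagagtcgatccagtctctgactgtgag
Cxcl10: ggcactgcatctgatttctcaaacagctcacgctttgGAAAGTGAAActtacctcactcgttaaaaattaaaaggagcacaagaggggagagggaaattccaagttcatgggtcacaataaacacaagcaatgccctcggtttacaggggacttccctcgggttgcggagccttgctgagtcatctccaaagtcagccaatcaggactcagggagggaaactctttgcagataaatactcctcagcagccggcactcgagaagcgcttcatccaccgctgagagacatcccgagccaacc
Serpina3g: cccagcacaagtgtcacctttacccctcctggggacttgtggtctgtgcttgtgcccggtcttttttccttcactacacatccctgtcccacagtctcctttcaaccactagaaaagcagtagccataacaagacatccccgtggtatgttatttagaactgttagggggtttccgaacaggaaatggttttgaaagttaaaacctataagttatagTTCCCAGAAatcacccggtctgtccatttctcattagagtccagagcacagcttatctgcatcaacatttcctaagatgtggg

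The 2 copies in *Ifit1* and in *Ifit3* stand apart, the 3 matches in *Isg15* overlap each other, and *Rsad2* and *Cxcl10* have 1 match each. Of the 25 type I interferon-response genes that fell, 19 had a promoter in the table, and 12 of these (63.2%) held the ISRE core, against 4.02% of 25748 promoters of all genes. It was also in 10 of 21 promoters (47.6%) of the members that did not pass the threshold, and in 11 of 23 promoters (47.8%) of the IFNγ-response list, of which 0 members fell. None of the 19, that is 0, held the GAS letters, against 6 of 21 promoters (28.6%) of the members that did not pass. These letters were in 9.64% of all promoters, in 4.23% of those of lower genes and in 10.8% of those of higher genes. A share of 9.64% would give few matches among 19 promoters, so nothing is read from the 0. Over all genes lower in both libraries, 18 of 142 promoters (12.7%) held the ISRE core, and over all higher genes 16 of 324 (4.94%). The 18 include the 12 promoters of type I interferon-response genes counted above, so the 12.7% is not a separate result. It does not show an excess of the core among the other lower genes, for which the share was not tested. A match is a run of letters, not evidence of binding.

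*Ifit1* (ENSMUSG00000034459, chr19:34640871-34650009), which encodes a protein that blocks translation of viral RNA, fell from 48.9 FPKM in mosaic *Brg1*-deleted cells to 6.34 and 4.68 FPKM in untreated and TAM-treated rKO1 cells, 7.72-fold (6.85 to 8.73) and 10.5-fold (9.09 to 12.1). *Ifit3*, of the same family, fell from 29.3 to 3.04 and 3.61 FPKM, and its near-identical neighbour *Ifit3b*, whose reads may be split with it, from 14.4 to 1.98 and 1.38 FPKM. For *Ifit1*, *Ifit3* and *Ifit3b* all 3 healthy libraries stood above both rKO1 libraries, with WT at 34.5, 6.19 and 31.8 FPKM. In *Brg1*-reexpressed cells of TAM-treated rKO1 mice these genes stood at 4.46, 2.21 and 1.20 FPKM, also below the healthy libraries. *Ifit1bl1* and *Mx1*, at 2.95 and 1.60 FPKM there, were below the healthy libraries but above both rKO1 *Brg1*-deleted ones. *Rsad2*, the antiviral enzyme viperin, fell from 4.84 to 0.313 and 0.332 FPKM on 499, 24 and 24 reads, 15.5-fold (10.3 to 24.4) and 14.6-fold (9.68 to 22.95). *Oasl1*, a sensor-related protein that restrains *Irf7* translation, fell from 4.93 to 0.346 and 0.115 FPKM on 306, 16 and 5 reads.

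Abundant members fell too. *Isg15*, the ubiquitin-like modifier, fell from 331 FPKM (5957 reads) to 141 and 119 FPKM, 2.35-fold (2.23 to 2.48) and 2.79-fold (2.64 to 2.96), with 463 FPKM in WT and 337 FPKM in mosaic *Brg1*-sufficient cells. *Usp18*, the protease that removes ISG15 and curbs the receptor, fell from 70.1 to 17.9 and 20.8 FPKM. *Irf7*, the factor that amplifies the type I response, fell from 45.7 to 20.7 and 15.4 FPKM. *Ifi27l2a* fell from 4452 FPKM to 1634 and 1829 FPKM, and the healthy libraries with *Brg1* were higher still at 9872 and 8031 FPKM. *Mx1*, *Mx2*, *Oasl2*, *Dhx58*, *Cmpk2*, *Rtp4*, *Lgals3bp*, *Ifit1bl1*, the Schlafen genes *Slfn1*, *Slfn5* and *Slfn8* and the clustered *Ifi206*, *Ifi208*, *Ifi209*, *Ifi213* and *Ifi214* on chromosome 1, whose similar copies may share reads, were the others. *Ifi209* lay just inside the threshold at -1.01 and -1.02.

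Members near the threshold and exceptions were few in the opposite direction. *Ifit2* differed by -0.90 and -0.93, *Ifi44* by -0.93 and -0.89 and *Samd9l* by -0.97 and -1.49, while *Bst2* (-0.08 and -0.18), *Zbp1* (0.13 and -0.12) and *Ly6e* (0.00 and 0.06) differed little. *Ly6a*, the stem cell antigen Sca-1, which also marks activated T cells, rose from 18.5 to 144 and 374 FPKM, yet stayed below the 714 FPKM of WT and 538 FPKM of mosaic *Brg1*-sufficient cells. *Ifi204*, a member of the *Ifi200* family also found in myeloid cells, rose from 0.142 to 1.41 and 1.82 FPKM.

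**Figure D2:**
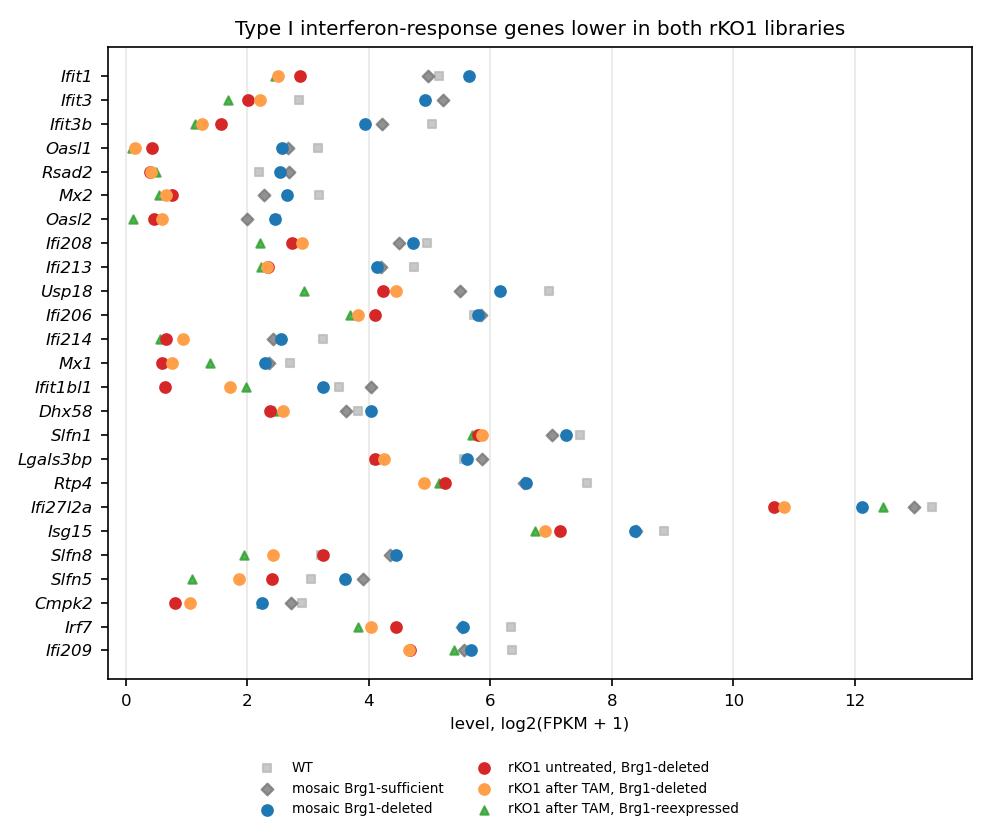
Level, as log2(FPKM + 1), of the 25 type I interferon-response genes lower in both rKO1 libraries, with 1 symbol per library and genes ordered by the smaller of their log2 differences. The untreated and TAM-treated rKO1 circles lie to the left of the mosaic *Brg1*-deleted circle in every row, for example at 6.34 and 4.68 against 48.9 FPKM for *Ifit1*.

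Of IFNγ-response genes, a minority were higher. Of 36 measured, 6 (16.7%) were higher and 0 lower, against 3.97% and 2.54% over all genes. The medians were 0.60 in untreated and 0.09 in TAM-treated cells. *Serpina3g*, a serpin that inhibits cathepsins of lysosomes, rose from 3.48 FPKM to 140 and 77.7 FPKM, 40.3-fold (34.6 to 47.1) and 22.4-fold (19.2 to 26.2), and its neighbour *Serpina3f* from 0.330 to 8.61 and 7.18 FPKM. *Cxcl10* rose from 6.55 to 48.8 and 46.8 FPKM and *Cxcl9* from 0.572 to 5.22 and 3.34 FPKM. Both are CXCR3 ligands, and macrophages are a known source. *Tbx21* was also on this list. The guanylate-binding protein *Gbp4* differed by 1.23 and 0.45 and *Iigp1*, an immunity-related GTPase, by 1.49 and 0.30, so these passed only in untreated cells. *Irf1*, a transcription factor induced by IFNγ, differed by 0.23 and 0.19.

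Few of the signalling genes upstream passed the threshold, as over all genes, of which 3.97% were higher and 2.54% lower. Of 20 measured interferon receptor, JAK and STAT genes, 0 were higher and 1 (5%) lower, with medians of -0.06 and -0.23. In lists of this size such counts cannot be told apart from the shares over all genes. *Stat5b*, which carries the IL-2 signal, fell from 35.1 to 14.8 and 15.98 FPKM, and its WT level was 15.3 FPKM. *Ifnar1* and *Ifnar2*, the receptor chains for type I interferon, differed by 0.58 and 0.10 and by -0.11 and -0.27, and *Stat2* by -0.30 and -0.78. None of 23 MHC class I presentation genes, 0 in either direction, passed in both libraries, with medians of -0.03 and -0.05. *B2m* differed by -0.38 and 0.06 and *H2-K1* by -0.84 and -0.63.

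**Figure D3:**
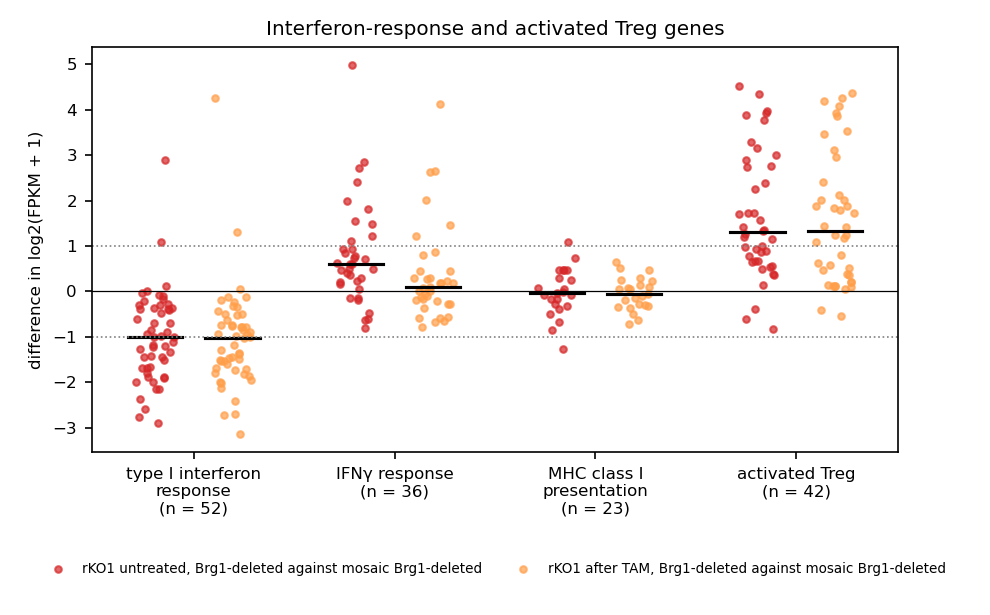
Difference in log2(FPKM + 1) of each rKO1 library from the mosaic *Brg1*-deleted library, with 1 dot per gene in 4 gene lists, the list median as a black bar and the 2-fold threshold dotted. The medians of the type I interferon list are -1.01 and -1.02, those of the IFNγ list 0.60 and 0.09, those of MHC class I -0.03 and -0.05 and those of activated Treg genes 1.302 and 1.34.

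Most Treg identity genes stayed within the threshold, but a larger share passed it than over all genes. Of 24 measured autosomal members, 2 (8.33%) were higher, *Il10* and *Ebi3*, both also on the activated Treg list, and 3 (12.5%) lower. The shares over all genes were 3.97% and 2.54%, and in so short a list the difference from them was not tested. *Gpr83*, a receptor enriched in Treg cells, fell from 150 to 39.6 and 34.5 FPKM, and *Il2rb*, the IL-2 receptor β chain, fell from 462 to 186 and 165 FPKM. *Tgfb1* also fell. *Il2ra*, the α chain used in the sort as CD25, differed by -0.23 and -0.68, *Ikzf2*, which encodes Helios, by 0.78 and 0.20, and *Ctla4*, the inhibitory receptor, by 1.01 and 0.81. The X-linked *Foxp3* had 62.7 FPKM in the mosaic, 47.0 in the untreated and 29.2 FPKM in the TAM-treated rKO1 library, which lies between the 20.01 FPKM of WT and the 137 FPKM of mosaic *Brg1*-sufficient cells. Of 13 T cell and Treg markers, *Cd3e*, a chain of the TCR complex, was lower, at 150, 48.6 and 27.6 FPKM, and *Cd4* had 54.8, 33.2 and 42.4 FPKM.

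Of 21 measured cytokine receptor genes and related ligands, 7 (33.3%) were higher and 1 (4.76%) lower, against 3.97% and 2.54% over all genes. The medians were 0.18 and 0.01. *Il18r1* and *Il18rap*, the chains of the IL-18 receptor, rose from 2.38 to 13.1 and 8.10 FPKM and from 0.193 to 4.59 and 2.38 FPKM, above all 3 healthy libraries. *Il1r2* and *Il7r* were on this list as well, and *Il10ra* stood just past the threshold with log2 differences of 1.01 and 1.03. Of 18 chemokine receptor and homing genes, 4 (22.2%) were higher and 1 (5.56%) lower. *Cxcr6*, a receptor of tissue-resident T cells, rose from 3.37 to 21.9 and 79.6 FPKM and *Ccr6* from 16.6 to 43.6 and 39.1 FPKM. This count fell to 1 when the trend with transcript length described below was removed, and was 7 when libraries were scaled by total reads. Of 31 costimulatory and coinhibitory genes, 5 (16.1%) rose, *Havcr2* (TIM-3), *Tnfsf14* (LIGHT) and *Tnfrsf8* (CD30) beside *Icos* and *Tigit*, and 0 fell. Of 14 cytotoxic granule genes, 6 (42.9%) rose and 0 fell. The proteoglycan *Srgn* (393, 821 and 922 FPKM) was among those that rose. Of 20 integrin and adhesion genes, 2 (10%) rose and 1 (5%) fell, which in so short a list cannot be told apart from the shares over all genes. *Itgb1*, the β1 integrin chain, rose from 6.75 to 15.7 and 26.3 FPKM and *Epcam* from 1.77 to 15.8 and 12.0 FPKM.

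Proliferation and cell death genes changed in part. Of 35 mitotic genes, 5 (14.3%) were higher and 0 lower, against 3.97% and 2.54% over all genes. In 34 the difference was positive in both libraries, with medians of 0.54 and 0.96. The count of higher mitotic genes was 11 with a pseudocount of 0.1 FPKM. *Birc5*, survivin, rose from 7.55 to 23.99 and 31.6 FPKM, about the 32.8 FPKM of WT, and *Mki67*, a marker of cycling cells, differed by 0.997 and 1.33, just under the threshold in untreated cells. Of 28 DNA replication genes, 0 passed in either direction, with medians of 0.22 and 0.62, and 2 were higher when libraries were scaled to equal FPKM totals or by total reads. Of 24 apoptosis genes, 8 (33.3%) were higher and 0 lower. *Casp1*, the inflammatory caspase, rose from 2.98 to 17.8 and 29.9 FPKM and the pro-apoptotic *Bax* from 90.3 to 224 and 190 FPKM. *Bcl2*, which opposes it, differed by -0.61 and -0.64. *Cdkn1a*, the cell cycle inhibitor p21, rose from 6.28 to 37.4 and 46.2 FPKM. It was 1 of 5 that rose among 13 glucocorticoid-responsive genes (38.5%). Others were *Fkbp5*, a classical target of the receptor, from 5.603 to 13.8 and 14.3 FPKM, and *Mt1*, metallothionein 1, from 1.99 to 30.6 and 21.1 FPKM.

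Few genes of the metabolic lists passed the threshold, as over all genes, of which 3.97% were higher and 2.54% lower. None of 44 oxidative phosphorylation genes (0) passed, 1 of 26 glycolysis and hypoxia genes (*Hif1a*) was higher, and 1 of 23 cholesterol and fatty acid synthesis genes was lower. That gene was *Srebf2*, the regulator of cholesterol synthesis, which fell from 32.5 to 5.97 and 9.54 FPKM. Of 19 NF-κB genes, 0 passed, which in so short a list cannot be told apart from the shares over all genes. Of 24 TCR early response genes, 2 were higher and 1 lower, the 2 being *Ier3*, from 2.04 to 19.5 and 20.9 FPKM, and *Bhlhe40*, from 1.15 to 6.11 and 24.5 FPKM. Of 21 stress and dissociation genes, 5 (23.8%) were higher, among them *Fos*, *Jun* and *Dusp1*. *Fos* had 8.60 FPKM in the mosaic, 28.4 in the untreated and 71.3 FPKM in the TAM-treated library, and the highest level, 162 FPKM, in WT. Of 24 BAF complex genes, *Bcl7c* rose and *Actb* fell.

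**Figure D4:**
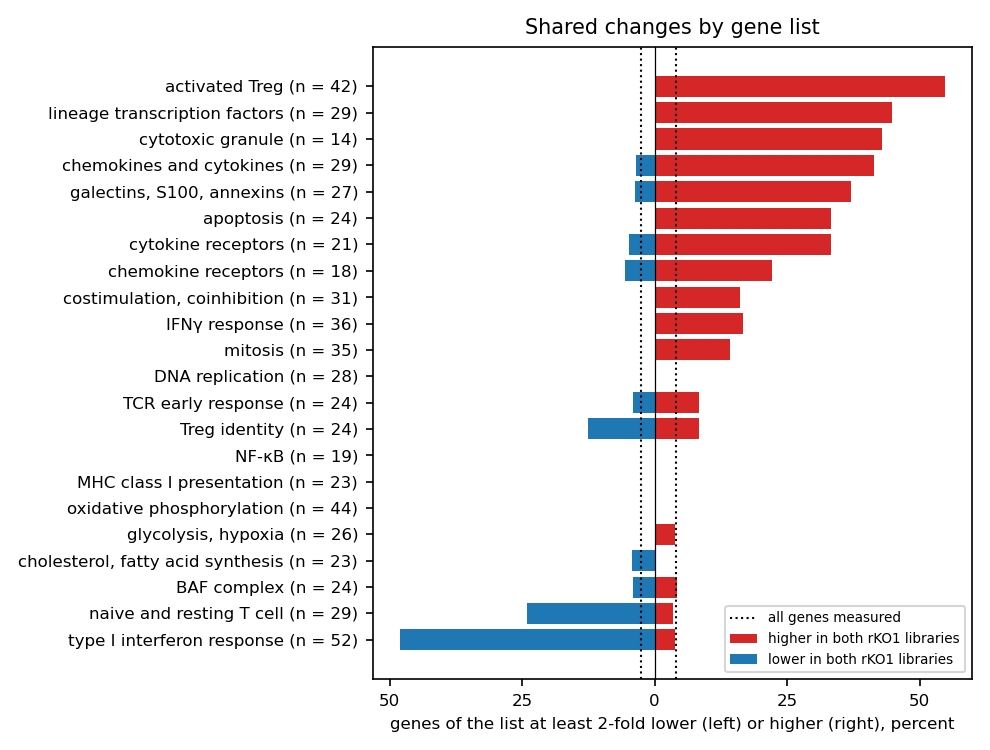
Share of the measured genes of 22 lists, without the study's own genes and the cell type markers, that were at least 2-fold higher (red, right) or lower (blue, left) in both rKO1 libraries, in percent, with the shares over all genes (3.97% and 2.54%) dotted. Among the lists drawn, activated Treg genes reach furthest to the right with 23 of 42, and type I interferon-response genes furthest to the left with 25 of 52.

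Single genes with the largest shared differences are given next. *Actb*, which encodes cytoplasmic β-actin and belongs to BAF complexes, fell from 15043 FPKM in the mosaic library to 1621 and 2516 FPKM, 9.28-fold (9.21 to 9.35) and 5.98-fold (5.94 to 6.02). It had 15844 FPKM in mosaic *Brg1*-sufficient cells, 4495 FPKM in WT and 6026 FPKM in *Brg1*-reexpressed cells of rKO1 mice, so it followed the mosaic host in both *Brg1* states. *Lars2*, the mitochondrial leucyl-tRNA synthetase, behaved alike with 25.2, 2.16 and 1.85 FPKM in the compared libraries, 47.8 FPKM in mosaic *Brg1*-sufficient cells and 2.73 FPKM in WT. *Pigt* (17.1, 3.49 and 3.16 FPKM), of the GPI transamidase, also had a high value in mosaic *Brg1*-sufficient cells (15.97 FPKM) and a low value in WT (2.78 FPKM). These genes thus separated the mosaic libraries from WT as well as from rKO1.

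Further lower genes were highest in the mosaic *Brg1*-deleted library. *Gsta4*, a glutathione transferase, fell from 143 FPKM to 9.01 and 34.7 FPKM, with 32.2 FPKM in WT and 62.8 FPKM in mosaic *Brg1*-sufficient cells. *Igf2r*, the receptor for lysosomal enzymes and IGF2, fell from 27.8 to 5.89 and 6.45 FPKM, and *Lfng*, a Notch glycosyltransferase, from 38.0 to 6.65 and 7.81 FPKM. *Ntn4* (14.5, 1.52 and 2.81 FPKM), *St8sia6* (13.6, 0.796 and 2.76 FPKM) and *Rbm38* (13.6, 1.87 and 3.03 FPKM) were likewise highest in the mosaic *Brg1*-deleted library. *Phf11c* fell from 30.01 to 5.67 and 5.88 FPKM, with 33.3 FPKM in WT.

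Several of the largest increases were in genes known from myeloid cells and platelets. *Pf4*, platelet factor 4, had 2 reads in the mosaic library and 1486 and 933 reads in the rKO1 libraries, a ratio of 998 (276 to 8248) and 666 (184 to 5507), and it reached 116 and 77.7 FPKM. *Ccl24*, an eosinophil chemokine of macrophages, had 0, 732 and 591 reads and was at least 328-fold and at least 281-fold higher. *Retnla*, a product of alternatively activated macrophages, had 3, 327 and 176 reads, a ratio of 146 (49.7 to 714) and 83.7 (28.2 to 410). *Slpi*, a protease inhibitor, rose from 1.82 to 81.9 and 45.01 FPKM, *Hmox1*, the haem-degrading enzyme, from 0.576 to 22.4 and 18.0 FPKM, and *Ubd*, a ubiquitin-like protein, from 0.723 to 49.0 and 22.2 FPKM. WT cells had 18.9 FPKM of *Pf4*, 41.4 of *Slpi* and 17.0 FPKM of *Hmox1*, while mosaic *Brg1*-sufficient cells had 0.0666, 3.71 and 1.26 FPKM, so for these genes both mosaic libraries were low. For *Ccl24*, *Retnla* and *Ubd*, WT cells had 0.458, 0 and 5.23 FPKM and mosaic *Brg1*-sufficient cells 0.0371, 0.161 and 0.413 FPKM. For these genes all healthy libraries lay below both rKO1 libraries.

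Marker genes of other cells moved in both directions, and over all genes 3.97% were higher and 2.54% lower. Of 18 measured myeloid markers, 9 were higher and 1 lower, and their summed level was 517 FPKM in the mosaic, 891 in the untreated and 837 FPKM in the TAM-treated library, against 936 FPKM in WT. *Fcer1g*, an Fc receptor chain of myeloid and some T cells, rose from 8.51 to 88.3 and 83.6 FPKM and *Cd68*, a macrophage protein, from 4.05 to 14.2 and 15.2 FPKM, while *Lyz2*, lysozyme, had 96.5, 55.7 and 51.5 FPKM. Of 9 erythroid markers, 4 were higher and 1 lower, with sums of 203, 625 and 883 FPKM and 697 FPKM in WT, and 4 of the 14 on the list had 0 reads in the mosaic library against 0 in either rKO1 library. *Hba-a1* rose from 137 to 524 and 734 FPKM, whereas the near-identical *Hba-a2* fell from 23.95 to 2.12 and 2.79 FPKM, and reads of these paralogs cannot be told apart. Of 13 immunoglobulin constant genes, 5 were higher and 2 lower. *Ighg1*, the IgG1 heavy chain of plasma cells, rose from 0.697 to 56.6 and 15.1 FPKM. The B cell markers *Cd79a* and *Vpreb3* fell, 2 of the 4 measured, and the B cell sum was 39.4, 10.2 and 13.7 FPKM. Of 6 plasma cell markers, 2 were higher, with sums of 101, 148 and 157 FPKM. Of 7 CD8 T and NK cell markers, 1 (*Ifng*) was higher, with sums of 32.8, 42.2 and 61.2 FPKM, and of 4 γδ T cell markers 0 passed, with sums of 13.1, 10.6 and 45.7 FPKM. The part of such cells in the myeloid, chemokine and IFNγ results was not tested.

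The higher genes were also short. Among protein-coding genes split into 5 equal groups by merged exon length, 11.1% of the shortest group (27 to 2286 bases) were higher in both rKO1 libraries and 0.824% of the longest (7223 to 41324 bases). For lower genes the shares were 2.16% and 1.34%. The median difference of all genes in the shortest group was 0.25 in untreated and 0.33 in TAM-treated cells, and -0.02 and -0.10 in the longest. Mosaic *Brg1*-sufficient cells, compared with the same mosaic *Brg1*-deleted library, differed by 0.17 in the shortest and -0.05 in the longest group. With the trend over length removed from each comparison, 437 genes were higher and 373 lower, of which 419 and 312 were also called without this step. Then 6 of the study's activation/effector genes and 22 of the activated Treg genes were higher, and 26 type I interferon-response genes were lower. The part of transcript length in single genes was not tested.

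**Figure D5:**
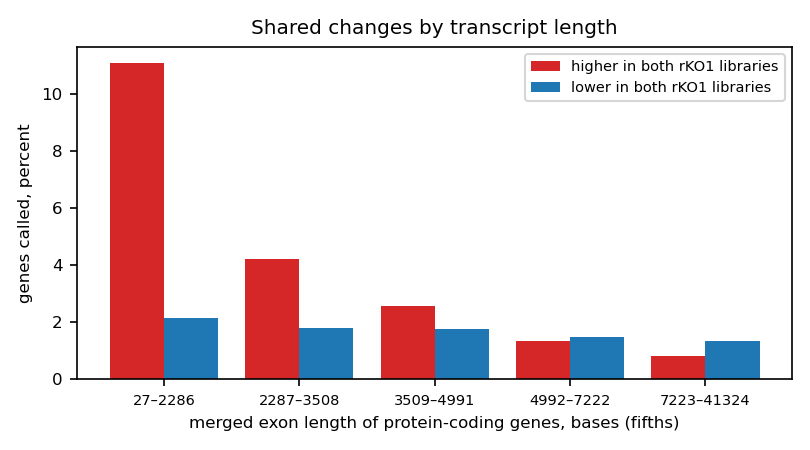
Share of protein-coding genes, in percent, called higher (red) or lower (blue) in both rKO1 libraries, in 5 equal groups by merged exon length in bases. The red bars fall from 11.1% in the shortest to 0.824% in the longest group, and the blue bars lie between 2.16% and 1.34%.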

How the data were processed

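Sorted CD4+CD25+ Treg cells were sequenced as paired reads of 150 bases after SMART-Seq v4 cDNA synthesis. The authors deposited 1 FPKM value per Ensembl gene and library. The submitters' processing notes name HISAT2 2.0, StringTie 1.3.3b, featureCounts 1.5.0-p3 and mm10, without saying how they were combined. Groups came from the sample labels, and the 2 libraries of the separate aTreg experiment were not used here.

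The deposited FPKM scaling was kept. Values were compared as log2(FPKM + 1) for genes with 1 FPKM or more in any of the 3 libraries, without X and Y, and a change needed 2-fold in both rKO1 libraries. Reads were recovered as FPKM times merged exon length (GENCODE release M21, GRCm38) times a total per library. For 93.5% of 26020 genes they were whole in all libraries to within 0.02 reads, for 1535 with a fitted length, and for 157 not. The annotation held 53360 of 53465 identifiers, and of the 105 without an entry 12 reached 1 FPKM. The implied totals were 0.989, 1.09 and 1.01 times the recovered reads in the mosaic, untreated and TAM-treated libraries. Ratios carry exact Clopper-Pearson 95% intervals, and 3 reads were taken as the floor. At this depth 1 read on a gene of 2000 bases equals 0.0210 to 0.0300 FPKM. No model across genes was fitted, since the study's adjusted p needs a dispersion that 1 library per condition does not give.

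Named genes were the 15 protein-coding genes per direction with the largest smaller difference and 10 FPKM or more, members of the gene lists, changed ones first, every gene the study's text names as naive or activation/effector, and *Smarca4*. The members and the 38 lists were chosen with earlier results of these data known. Promoters came from RefSeq (GRCm38.p6). The code was tested on simulated data. Versions were matplotlib 3.10.9, pandas 2.3.3, SciPy 1.17.1 and NumPy 2.4.6 under Python 3.11.15. Some list members are not reported here by name. Other pseudocounts, filters, scalings, fold thresholds and gene types were tried.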

Additional observations from a re-analysis of the deposited data

Results flagged for a closer look

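In the rKO1 libraries, 5 genes passed 2-fold in opposite directions, a difference that was not tested. On the log2 scale, untreated and TAM-treated cells differed from the mosaic *Brg1*-deleted library by -1.17 and 1.02 for *mt-Tt*, a mitochondrial tRNA with 2 reads in the mosaic library, by -1.11 and 1.36 for the small nucleolar RNA *Gm24336* with 4 reads, by 1.12 and -1.15 for the small nuclear RNA *Gm24878* with 3 reads, by 1.04 and -1.79 for the pseudogene *Gm20305* with 35 reads and by -1.26 and 1.91 for the T cell receptor segment *Trgj2* with 2 reads. Reads of the 4 Y-linked genes, which were left out of the main comparison, came to 4155 in the untreated and 2083 in the TAM-treated rKO1 *Brg1*-deleted library, against 0 in each of the 3 healthy libraries, although the labels of both rKO1 libraries give a genotype with a *Foxp3* YFP-Cre allele on each X chromosome. The TAM-treated library also held 934 *Xist* reads, and the number and sex of the animals behind each library were not given in the sources used here.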

How the results depend on the processing

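No paired analysis was possible because each condition has 1 library. The main rule called 515 genes higher and 330 lower. A pseudocount of 0.1 FPKM gave 1051 and 569, a threshold of 1.5-fold 1281 and 953, and a threshold of 4-fold 100 and 32. With 5 FPKM or more in any library 180 genes were lower, and among protein-coding genes 166. Without the TAM-treated library 982 genes were higher and 661 lower, and without the untreated library 907 and 537. Counts stayed within 1.5 times of the main ones for the other pseudocount, no filter, the other scalings, X and Y kept, at least 20 reads in a library, the length trend removed and marker genes left out, the last 3 chosen after the data were seen. Other scalings moved the median of all genes to at most 0.15 (total reads, untreated), and gave between 467 and 580 higher and between 288 and 376 lower genes. Over the other scalings, the pseudocount of 0.1 and the length trend, between 22 and 25 activated Treg genes were higher and between 23 and 29 type I interferon-response genes lower. Of 370 recomputed list counts, 333 stayed within 1.5 times and 37 did not, 22 of them outside the pseudocount of 0.1. Without replicates, no result here has been checked against the spread between mice, and weak genes are limited by depth.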

Other observations

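The genes in these paragraphs were picked after their values were seen. Platelet genes were present in the rKO1 libraries, *Ppbp* with 133 and 122 reads and *Gp9* with 106 and 79 reads in untreated and TAM-treated cells against 0 for both in the mosaic *Brg1*-deleted library. *Ppbp* reached 6.93 and 6.76 FPKM, similar to the 6.63 FPKM of WT. *C1qb*, a complement gene of macrophages, stood at 7.88 FPKM in the mosaic library and 92.4 and 75.5 FPKM in the rKO1 libraries, with 79.0 FPKM in WT. *Car1*, an erythroid carbonic anhydrase, had 0, 222 and 201 reads and 0.211 FPKM in WT.

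Genes of the exocrine pancreas and gut were found in the mosaic libraries. *Reg3b* had 180 reads in mosaic *Brg1*-deleted cells and 0 in both rKO1 libraries, with 5.01 FPKM in mosaic *Brg1*-sufficient cells and 0 in WT. *Reg3a* had 49 reads and *Try4*, a trypsin, 420 reads in mosaic *Brg1*-deleted cells. *Reg3a* and *Try4* had 0 reads in untreated rKO1 cells, and in TAM-treated cells *Try4* had 100 and *Reg3a* 0. The source of these reads was not tested.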
